A study of Mus musculus with 3 samples.

Results

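Cells outside cell division were compared between astrocytes kept in a metabolite medium called MIM and neural stem cells, all from mouse cortical cultures. The cells were chosen by measured values: a barcode was kept with 200 or more detected genes and no more than 20% of its UMIs (unique molecular identifiers, 1 per captured RNA molecule) from mitochondrial genes, and counted as non-dividing with 0 or 1 UMI summed over Top2a, Cenpf, Ube2c, Birc5, Ccnb2, Hmmr, Cdca8 and Ckap2l, which act in mitosis. This left 10504 of 14964 kept MIM-treated astrocytes (70.2%) and 8532 of 9145 kept neural stem cells (93.3%), together 19036 of 33927 kept cells of the series. The remaining library of the series, untreated astrocytes, enters below as a level only, from 9808 of its 9818 kept cells under the same rule.

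All 3 libraries came from C57BL/6 mice, and the labels give embryonic day 14.5 for each. Neural stem cells were grown as neurospheres, floating clusters of progenitors, in Neurobasal with B27, EGF and FGF2 at 20 ng/mL each, and were used within their first 3 passages. MIM-treated astrocytes had been grown on coated plates in DMEM-F12 with 10% serum, then moved to MIM: a serum-free mixture of DMEM-F12 and Neurobasal with B27, N2, FGF2 at 20 ng/mL and up to 6 metabolites, namely putrescine, S-adenosylmethionine and the amino acids cysteine, glycine, methionine and threonine. They were collected by day 5. The labels do not tie a metabolite combination, a day, or a postnatal or neurosphere origin of the astrocytes to this library. Untreated astrocytes stayed in the medium with serum. The cultures compared here differ at once in growth on plates or in suspension, earlier serum, EGF, base medium, N2 and metabolites, which cannot be told apart, and whether they also differ in origin is not given.

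The non-dividing MIM-treated cells held 31710100 UMIs, with a median of 2839 per cell, and the neural stem cells 12964488, with a median of 1360.5. Malat1, a long noncoding RNA that stays in the nucleus, took 11.1% of UMIs in MIM-treated astrocytes, 27.9% in neural stem cells and 13.7% in untreated astrocytes. Mitochondrial genes took 2.25% and 1.47%, and ribosomal protein genes 7.97% and 11.4%, in MIM-treated and neural stem cells in that order. MIM-treated and neural stem cell libraries shared 32 barcodes. Each group is 1 library, so none of the differences below could be checked against replicates or tested. Intervals given in brackets are exact 95% intervals, and they cover counting error only.

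Neural stem cells of the cortex are kept in a dividing, undifferentiated state by Notch signalling, whose targets are the Hes repressors, and by EGF and FGF acting through receptor tyrosine kinases. Astrocytes are the glia that take up glutamate, buffer ions and water and supply lipids and metabolites. Both cell types express many of the same genes, such as Slc1a3, Sox9 and Fabp7, so neither is defined by a single marker. Methionine, S-adenosylmethionine and glycine feed the one-carbon cycle, which supplies methyl groups to DNA and histones.

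Levels are counts-per-million of UMIs (CPM), summed over the non-dividing cells of a library. A gene was tested if it reached 10 CPM in either library, and called higher or lower if the log2 ratio of MIM-treated over neural stem cells, with 1 CPM added to each level, was at least 1 in size. Among 7180 genes tested, 796 were higher (11.1%) and 1739 lower (24.2%) in MIM-treated astrocytes, and the median log2 ratio was −0.24. A gene that is low in 1 library passes this floor through the other alone, which fixed its direction. Counts over measured genes, those of every list below included, therefore lean toward calls. Such genes are named below for some lists only, and other lists hold them as well. Scaling moved this balance. With Malat1 left out of the totals, 8013 genes reached 10 CPM, of which 462 (5.77%) were higher and 2870 (35.8%) lower, and the median moved by −0.29. With TMM, edgeR's scaling by the trimmed mean of the ratios, 1635 were higher and 890 lower, and the median moved by 0.41. Calls in the higher direction were 31.4% of calls with library totals, 13.9% without Malat1 and 64.75% with TMM. Under all 3 scalings 450 genes were called higher and 890 lower.

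**Figure D1:**
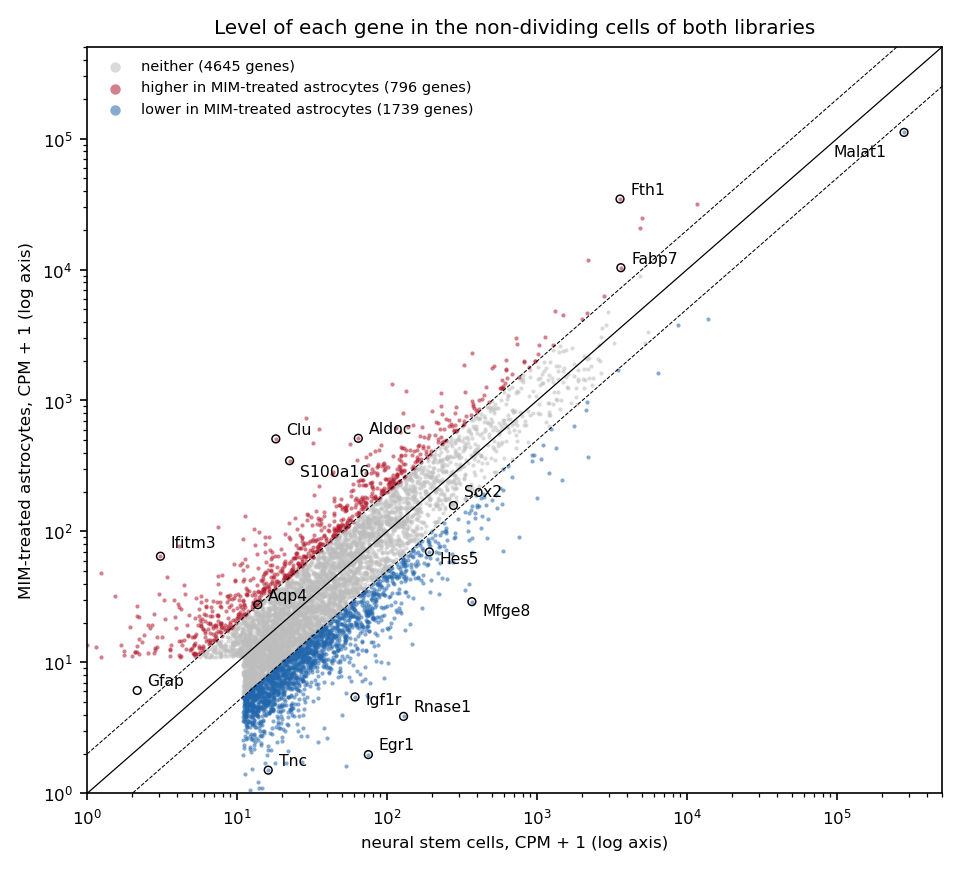
Level of each tested gene in neural stem cells (x axis) and MIM-treated astrocytes (y axis), in CPM + 1 on log axes, for non-dividing cells. The solid line marks equal levels and the dashed lines a 2-fold difference; 796 genes lie at or above the upper dashed line and 1739 at or below the lower one, with Clu, Ifitm3 and S100a16 far above and Egr1, Rnase1 and Tnc far below.

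The genes farthest above neural stem cells included secreted, metal-binding and metabolic genes. Clu (ENSMUSG00000022037, mm10 chromosome 14, 65968483 to 65981547), a secreted chaperone of astrocytes, stood at 508 CPM (500.1–516) in MIM-treated astrocytes, 17.1 CPM (14.95–19.5) in neural stem cells and 4068 CPM in untreated astrocytes. The first level was 29.7-fold above the second (26.0 to 34.0). Fth1 (ENSMUSG00000024661, chromosome 19, 9980598 to 9985098), the ferritin heavy chain that stores iron, stood at 34530 CPM against 3567 CPM, and at 58280 CPM in untreated astrocytes. Its ratio was 9.68-fold (9.59–9.77). Chchd10, a small protein of the mitochondrial intermembrane space, stood at 75.8 CPM against 3.09 CPM, 24.6-fold higher (18–34.5).

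Other genes among the 15 with the largest ratios belonged to several families. The membrane proteins Tmem176a and Tmem176b, neighbours on chromosome 6, stood at 605 and 1183 CPM against 34.1 and 133 CPM. Rida, a deaminase that clears reactive imines, stood at 472 against 30.85 CPM and Dcxr, a xylulose reductase, at 104 against 11.9 CPM. Gstt1, a glutathione transferase, was 8.77-fold higher (7.34–10.55), and F3, tissue factor of the clotting cascade, 7.515-fold (6.43–8.83). These genes were also present in untreated astrocytes, with Rida at 1331 CPM and F3 at 198 CPM, while Gstt1 stood at 32.3 CPM there, below its 86.6 CPM in MIM-treated astrocytes. Hist1h4i and Hist1h2bc, which encode core histones H4 and H2B, were 16.75-fold (13.5–21.1) and 12.4-fold (11.8–13.1) higher. Near-identical copies of both histone genes could share their reads, so these values are uncertain.

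The genes farthest below neural stem cells included receptors, chromatin genes and an immediate early factor. Egr1 (ENSMUSG00000038418, chromosome 18, 34859823 to 34864984), a zinc finger factor induced within minutes of growth factor signalling, was seen in 31 UMIs of MIM-treated and 959 of neural stem cells. Its level was 0.978 CPM (0.664–1.39) against 73.97 CPM (69.4–78.8), a ratio of 75.7-fold (52.95–112). Calcrl, the receptor for CGRP and adrenomedullin, had 20 UMIs against 674, and Rnase1, a secreted ribonuclease, 91 against 1655. All 3 were low in untreated astrocytes as well, at 2.08 CPM for Egr1, 0.594 CPM for Calcrl and 4.57 CPM for Rnase1.

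Mfge8 (ENSMUSG00000030605, chromosome 7, 79133768 to 79149060), a secreted bridge between dying cells and phagocytes that is enriched in astrocytes, stood at 28.1 CPM (26.3–30.0) against 366 CPM (356–377). It was 13.04-fold lower (12.14–14.02), and at 7.86 CPM in untreated astrocytes lower still. F2r, the thrombin receptor, stood at 34.4 against 332 CPM, Fxyd6, a regulator of the sodium pump, at 12.8 against 145 CPM, and Ppp1r16b, a regulator of protein phosphatase 1, at 6.59 against 94.3 CPM. Anks1b, a synaptic scaffold protein, stood at 4.45 against 73.8 CPM, Gigyf1, a translational repressor, at 6.496 against 70.5 CPM, and Khsrp, an RNA decay factor, at 8.83 against 100.6 CPM. Fxyd6 was the exception among these 6 in untreated astrocytes, where it stood at 89.2 CPM, nearer to neural stem cells.

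The 8 genes of the rule are low here by construction and are given as a description only. Cells with 1 UMI numbered 1898 in MIM-treated astrocytes and 496 in neural stem cells, and cells with 2 UMIs, just outside the limit, 557 and 132. With the rule applied to cells thinned to 1000 UMIs, which left out shallower cells and so kept 13991 of 14964 MIM-treated and 7688 of 9145 neural stem cells, 78.6% and 94.6% were non-dividing. Thinning and the loss of shallow cells both enter that difference from the shares given above. Mki67, a proliferation marker outside the rule, stood at 1.23 CPM against 3.93 CPM, below the 10 CPM needed to be tested.

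Microglial, blood and vessel markers were at or near 0. Of 6 microglial markers 4 had no UMI in MIM-treated cells and all 6 none in neural stem cells, and the 3 haemoglobin genes had none in either. Endothelial markers summed to 0.410 and 0.8485 CPM, mural markers to 0.4415 and 2.545 CPM, and ependymal markers to 16.6 and 3.01 CPM. The 12 astrocyte markers summed to 1555 CPM in MIM-treated astrocytes and 1211 CPM in neural stem cells, with 11 of them at 10 CPM or more in each. Aldoc alone gave 513 and 63.25 CPM of these sums. The 10 neural progenitor markers summed to 11230 against 5004 CPM, of which Fabp7 alone gave 10320 and 3615 CPM. Neither sum thus stands for its markers one by one. Markers of oligodendrocyte precursors summed to 5.11 CPM against 58.2 CPM, neuronal markers to 7.66 against 33.5 CPM, and fibroblast markers, which include Pdgfra, to 1.20 against 21.6 CPM. Leaving out cells with at least 2 UMIs of precursor and neuron markers gave 794 genes higher and 1741 lower.

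The label astrocyte rests on the culture rather than on Gfap. Gfap, the intermediate filament of astrocytes, stood at 5.11 CPM (4.35–5.96) in MIM-treated cells, 1.16 CPM (0.648–1.91) in neural stem cells and 271.5 CPM in untreated astrocytes. It stayed under 10 CPM in both libraries compared and so was not tested. Aqp4, the water channel of astrocyte endfeet, stood at 26.6, 12.7 and 566 CPM in the same order. The call for Aqp4, a log2 ratio of 1.01, was lost with totals without Malat1, where it was 0.73.

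**Figure D2:**
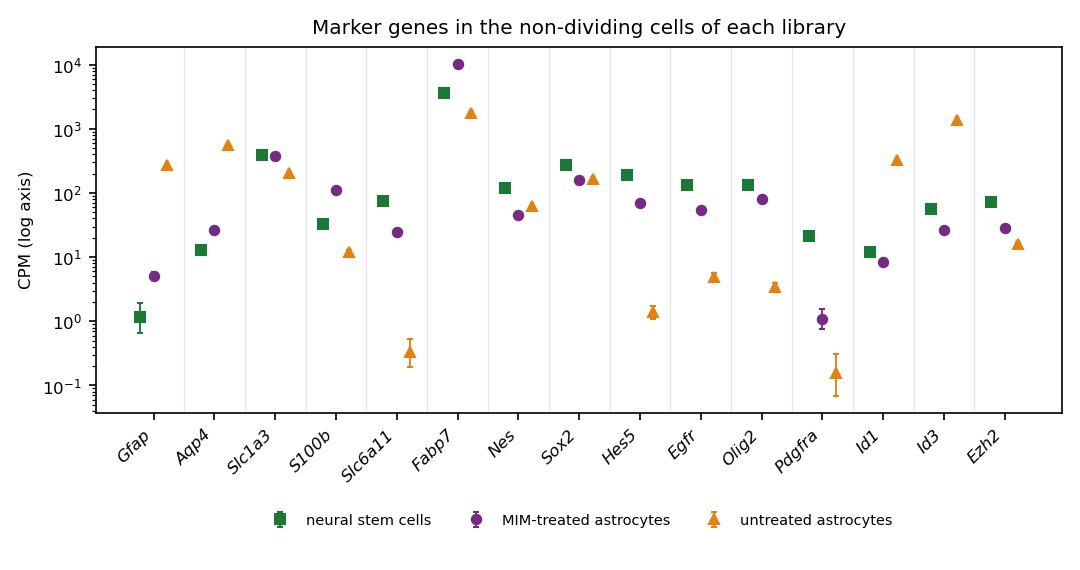
Levels in CPM, on a log axis, of 15 marker genes in non-dividing cells of neural stem cells (squares), MIM-treated astrocytes (circles) and untreated astrocytes (triangles); bars are exact 95% Poisson intervals. Gfap, Aqp4, Id1 and Id3 are highest in untreated astrocytes, and Hes5, Egfr, Olig2 and Pdgfra are highest in neural stem cells.

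With library totals, neural progenitor genes were mostly lower in MIM-treated astrocytes. Of 24 listed genes 21 were measured, meaning that they reached 10 CPM in either library. Of these 15 were lower and 0 higher, beside 24.2% and 11.1% of all genes. Their median log2 ratio was −1.38 beside −0.24 over all genes. With TMM 10 were lower and 0 higher, and Nes, Egfr, Zbtb20, Dll1 and Emx2 lost their calls. Tnc, Dll1 and Emx2 reached 10 CPM through neural stem cells alone, which fixed their direction. Tnc, a matrix glycoprotein of the stem cell niche, had the lowest ratio, at 0.505 CPM against 15.1 CPM, 29.96-fold lower (17.99–53.46). Sox11 and Sox4, factors of immature neural cells, stood at 13.3 and 160 CPM against 77.2 and 581 CPM. The RNA-binding proteins Msi2 and Msi1, which repress translation in neural stem cells, stood at 33.6 and 19.3 CPM against 133 and 61.4 CPM.

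Nes, the intermediate filament of neural progenitors, stood at 45.95 CPM (43.6–48.4) against 120.9 CPM (115–127), 2.63-fold lower (2.45–2.83), and at 62.6 CPM in untreated astrocytes. Its call was lost with TMM, where the log2 ratio was −0.95. Sox2, a core factor of neural stem cells, stood at 157 CPM (152.5–161) against 276 CPM (267–285), under the 2-fold size, and at 168 CPM in untreated astrocytes. Pax6, Lhx2 and Sox1, other progenitor factors, also missed that size, with log2 ratios of −0.89, −0.85 and −0.96. Nr2e1, a nuclear receptor of neural stem cells, stood at 23.05 against 18.9 CPM.

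Notch signalling genes were lower from receptor to target. Of 19 measured genes 12 were lower as against 0 higher (median −1.12). Among the lower genes, Dll1, Numbl, Dtx1 and Nrarp reached 10 CPM through neural stem cells alone, which fixed their direction. The receptors Notch2 and Notch1 stood at 124 and 18.2 CPM against 472 and 56.5 CPM, and the ligands Jag1 and Dll1 at 12.9 and 9.11 CPM against 36.8 and 21.7 CPM. Rbpj, the DNA-binding protein that Notch acts through, stood at 22.4 against 49.7 CPM, and its coactivator Maml2 at 11.9 against 61.7 CPM. With TMM 6 of the 19 remained lower, so the count depends on the scaling.

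The Hes repressors, direct targets of Notch, followed the same direction. Hes5 (ENSMUSG00000048001, chromosome 4, 154960923 to 154962371) stood at 68.75 CPM (65.9–71.7) against 190 CPM (183–198), 2.77-fold lower (2.61–2.94), and at 1.39 CPM in untreated astrocytes. Its level in MIM-treated cells thus lay between those of the other libraries. Hes1 stood at 23.5 against 78.5 CPM. Hes6, which opposes Hes1, and Hey1 had log2 ratios of −0.48 and −0.12 and were not called.

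Astrocyte genes went in both directions. Of 26 measured genes 12 were higher and 5 lower (median log2 ratio 0.91). Higher genes included Aldoc, the aldolase of astrocytes, at 513 CPM (505–521) against 63.25 CPM (59.0–67.7), Apoe, the main lipid carrier of the brain, at 20790 against 4828 CPM, and Cst3, a secreted protease inhibitor, at 24800 against 4987 CPM. Membrane genes were among them too: Cldn10, a tight junction protein, stood at 68.6 against 14.4 CPM, Kcnj10, the potassium channel of glia, at 77.9 against 23.7 CPM, and Slc4a4, a bicarbonate transporter, at 211 against 79.8 CPM. Glul, which converts glutamate to glutamine, stood at 185 against 76.75 CPM.

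Cldn10 did not share the level of untreated astrocytes, where it stood at 4.08 CPM, nor did S100b, a calcium-binding protein at 113, 32.9 and 11.8 CPM in MIM-treated, neural stem and untreated cells. For both, MIM-treated cells held the highest level of the 3 libraries. The astrocyte genes called lower included Mfge8, Slc6a11, a GABA transporter, Agt, angiotensinogen, and Fgfr3, an FGF receptor. Slc6a11 stood at 24.5 against 75.2 CPM and at 0.336 CPM in untreated astrocytes. Glutamate transporters of astrocytes differed little: Slc1a3 stood at 379 against 387 CPM, a ratio of 1.02-fold (0.988–1.055), and Slc1a2 at 31.9 against 40.8 CPM.

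Genes that astrocytes and progenitors share were also divided. Of 19 measured, 3 were higher, 7 lower, and their median was −0.46. With TMM 4 were higher and 4 lower. Fabp7, the brain fatty acid-binding protein, stood at 10320 CPM against 3615 CPM and at 1793 CPM in untreated astrocytes. It was 2.86-fold higher (2.83–2.88) in MIM-treated cells than in neural stem cells. Mt3, the metallothionein of the brain, stood at 11920 against 2181 CPM, and Dbi, an acyl-CoA-binding protein, at 31640 against 11720 CPM.

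Nuclear factor I genes, which switch on gliogenesis, were lower. Nfia stood at 246.6 CPM (241–252) against 1466 CPM (1445–1487), 5.94-fold lower (5.79–6.10), and at 127 CPM in untreated astrocytes. Nfib and Nfix stood at 68.65 and 98.5 CPM against 364.5 and 232 CPM. Sox9, a glial fate factor, was 4.00-fold lower (3.83–4.18). Vim and Ptprz1, an intermediate filament protein and a receptor phosphatase of radial glia, had log2 ratios of −0.05 and −0.12.

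Oligodendrocyte lineage genes split by stage. Of 10 measured, 6 were lower as against 1 higher (median −1.02, but 0.06 among cells with 1000 to 3000 UMIs). With TMM 3 were lower. Sox10, the lineage factor, had 3 UMIs in MIM-treated cells against 13.7 CPM in neural stem cells, 145-fold apart, with 48.9 to 710.4 as the counting interval. Pdgfra, the growth factor receptor of oligodendrocyte precursors, stood at 1.10 against 20.98 CPM and Cspg4, the NG2 proteoglycan, at 1.42 against 13.3 CPM. These 3 define the precursors, and they reached 10 CPM through neural stem cells alone, which fixed their direction. In cells matched for their Malat1 share their log2 ratios were −2.89, −2.02 and −2.29, and 2 of the 10 genes were called lower. These ratios rested on 0, 14 and 26 UMIs in MIM-treated cells and 8, 7 and 12 in neural stem cells. Olig1 and Olig2, factors of both the oligodendrocyte lineage and ventral progenitors, stood at 668 and 80.5 CPM against 593.5 and 134 CPM and were not called.

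Immediate early genes, the first transcribed when a growth factor or stress signal arrives, were mostly too low to be measured. Of 30 listed 8 reached 10 CPM in either library, and 3 of these, Egr1, Klf10 and Fos, did so through neural stem cells alone, which fixed their direction. Of the 8, 6 were lower and 0 higher (median log2 ratio −1.48). Besides Egr1 these were Klf10, a TGF-beta-induced repressor, at 0.725 against 26.0 CPM, Fos, a subunit of the AP-1 factor, at 2.02 CPM (1.55–2.58) against 19.75 CPM (17.4–22.3), and Jun, its partner, at 13.5 against 29.6 CPM. Btg2, an antiproliferative gene, stood at 21.3 against 61.2 CPM, and Ier2, a nuclear factor, at 38.7 against 109 CPM. Jund and Klf6 had log2 ratios of 0.24 and 0.09. Fos, Jun and Ier2 stood at 21.6, 50.6 and 73.1 CPM in untreated astrocytes, above MIM-treated cells, while Egr1 and Klf10 were low in both astrocyte libraries. The labels record trypsin for harvest but no time between harvest and fixation, and a difference in handling between libraries cannot be told apart from the media.

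Promoter sequences of these genes are shown because cAMP response elements are a textbook entry point for their induction. RefSeq windows (build GRCm38.p6) of 5 of the 8 genes were used, and the 250 bases before the start were searched on both strands for the full element TGACGTCA and its core TGACG, which the full element contains. Btg2 held the full element, beginning 166 bases before the start, and Fos held the core alone 129 and 66 bases before it. The windows of Jun, Jund and Klf6 held neither. Over all 32851 windows, 1.55% held the full element and 17.8% the core. The stretches, with the element in capitals, are printed on the gene's own strand, for Btg2 from the minus strand of chr1:134079288-134079347 and for Fos from the plus strand of chr12:85473734-85473793 and chr12:85473797-85473856. A match is a description of the sequence, not a bound site.
Btg2: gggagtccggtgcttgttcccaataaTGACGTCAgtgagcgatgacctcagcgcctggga
Fos, distal: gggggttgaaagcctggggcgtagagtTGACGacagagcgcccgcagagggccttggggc
Fos, proximal: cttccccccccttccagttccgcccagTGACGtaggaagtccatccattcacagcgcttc

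Feedback genes of FGF and MAPK signalling, which growth factors switch on to limit their own signal, were lower or not called. Both media held FGF2 and the neural stem cell medium held EGF as well, and the part of either was not tested. Of 13 measured, 7 were lower, 0 higher, and their median was −1.05. Among the lower genes, Spry1, Spry4, Etv5, Il17rd and Dusp6 reached 10 CPM through neural stem cells alone, which fixed their direction. With TMM 4 were lower. The Sprouty inhibitors Spry2, Spry1 and Spry4 stood at 359, 4.51 and 2.84 CPM against 1054, 16.2 and 12.7 CPM. The ETS factors Etv1 and Etv5 stood at 64.7 and 9.145 CPM against 166 and 28.2 CPM, and Dusp6, the phosphatase of ERK, at 7.85 against 17.3 CPM. Etv4 and Ccnd1, the D1 cyclin, had log2 ratios of −0.26 and −0.21 and were not called.

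Several growth factor receptors were lower, and a pair of IGF-binding proteins was higher. Of 13 measured genes 9 were lower as against 2 higher (median −1.28), or 5 lower and 3 higher with TMM. Among the lower genes, Igf1r, Igf2r, Erbb4, Insr, Igfbp5 and Irs2 reached 10 CPM through neural stem cells alone, which fixed their direction. Igf1r (ENSMUSG00000005533, chromosome 7, 67952827 to 68233668), the IGF1 receptor, stood at 4.45 CPM (3.74–5.24) against 60.1 CPM (55.9–64.5), 13.5-fold lower (11.3–16.3). Igf2r, which clears IGF2, stood at 4.79 against 52.5 CPM and Insr, the insulin receptor, at 2.30 against 13.6 CPM. Egfr, the EGF receptor, stood at 53.4 against 131 CPM, and at 4.97 CPM in untreated astrocytes. Its call was lost with TMM, at −0.86. The 2 higher genes were Igfbp2 and Igfbp4, secreted IGF-binding proteins, at 802 CPM (792–812) and 183 CPM against 127 CPM (121–133) and 67.4 CPM. Igfbp2 in MIM-treated cells was also above its 248 CPM in untreated astrocytes.

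BMP pathway genes were called lower in part, and the Id genes that BMP induces stood far below untreated astrocytes in both libraries. Of 10 measured genes 5 were lower and 0 higher (median log2 ratio −0.96). Among the lower genes, Bmpr1b and Smad5 reached 10 CPM through neural stem cells alone, which fixed their direction. With TMM 3 were lower and 1 higher, and Id3 and Smad1 lost their calls, at −0.65 and −0.92. The receptors Bmpr1a and Bmpr1b stood at 10.2 and 5.30 CPM against 31.5 and 23.7 CPM, and Smad1 and Smad5, which carry the signal, at 12.99 and 9.87 CPM against 34.0 and 32.4 CPM. Id3 stood at 26.5 CPM (24.7–28.3) against 56.6 CPM (52.6–60.9) and at 1378 CPM in untreated astrocytes. In dividing cells Id3 stood at 51.5 against 51.6 CPM, a log2 ratio of −0.0037. Id1 stood at 8.42 against 12.0 CPM and at 328 CPM in untreated astrocytes, and was not called.

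Genes for enzymes that set or remove histone and DNA methylation were lower or not called. Of 39 measured, 27 were lower, 0 higher, and their median was −1.19. Kdm6a, Tet1, Tet2, Tet3 and Setd1b, among others of the 27, reached 10 CPM through neural stem cells alone, which fixed their direction. With TMM 13 were lower and the median was −0.77. Kdm6b (ENSMUSG00000018476, chromosome 11, 69398508 to 69413675), a demethylase of H3 lysine 27, stood at 38.5 CPM (36.4–40.7) against 349 CPM (339–359). It was 9.055-fold lower (8.50–9.65), and its relative Kdm6a 6.505-fold lower (5.09–8.37). Tet1, Tet2 and Tet3, which oxidise methylcytosine, stood at 3.72, 8.64 and 5.803 CPM against 21.9, 38.3 and 32.7 CPM. Dnmt3a, the de novo DNA methyltransferase, stood at 12.8 against 55.3 CPM, while Dnmt1, which copies methylation after replication, had a log2 ratio of −0.60. Of the Polycomb genes Ezh2 stood at 28.0 against 72.0 CPM, while Eed and Suz12 had log2 ratios of −0.59 and −0.39. Prmt1, the main arginine methyltransferase, was the only one of the 39 with a positive ratio, at 178 against 137 CPM.

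Genes of chromatin remodelling, splicing and nuclear RNA had no member called higher. Of 30 remodelling genes 19 were lower as against 0 higher (median −1.18), or 11 lower with TMM: Chd3, Chd7 and Arid1b, subunits or ATPases of such complexes, stood at 4.64, 42.8 and 6.18 CPM against 71.9, 230 and 56.8 CPM. Chd3, Arid1b and Arid1a, among others of the lower genes, reached 10 CPM through neural stem cells alone, which fixed their direction. Smarcb1, a core subunit of SWI/SNF, had a log2 ratio of −0.16. Of 39 splicing and nuclear RNA-binding genes 11 were lower and 0 higher, where 24.2% of all genes were lower, and the median was −0.73. Without Malat1 21 were lower and with TMM 8. They included Tra2a and Tra2b, activators of exon inclusion, and Srsf6, a splicing factor. All 5 measured nuclear noncoding RNAs were lower with library totals and 3 with TMM, where Malat1 and Pantr1, at −0.90 and −0.98, lost the call: Malat1 at 111400 against 279300 CPM, Gm26917 at 8.515 against 58.5 CPM, Kcnq1ot1, the antisense RNA of an imprinted locus, at 11.45 against 71.4 CPM, Miat at 4.54 against 15.4 CPM and Pantr1 at 346 against 921 CPM. Malat1 thus moved with the groups beside each of these lists, and its part in them was not tested.

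**Figure D3:**
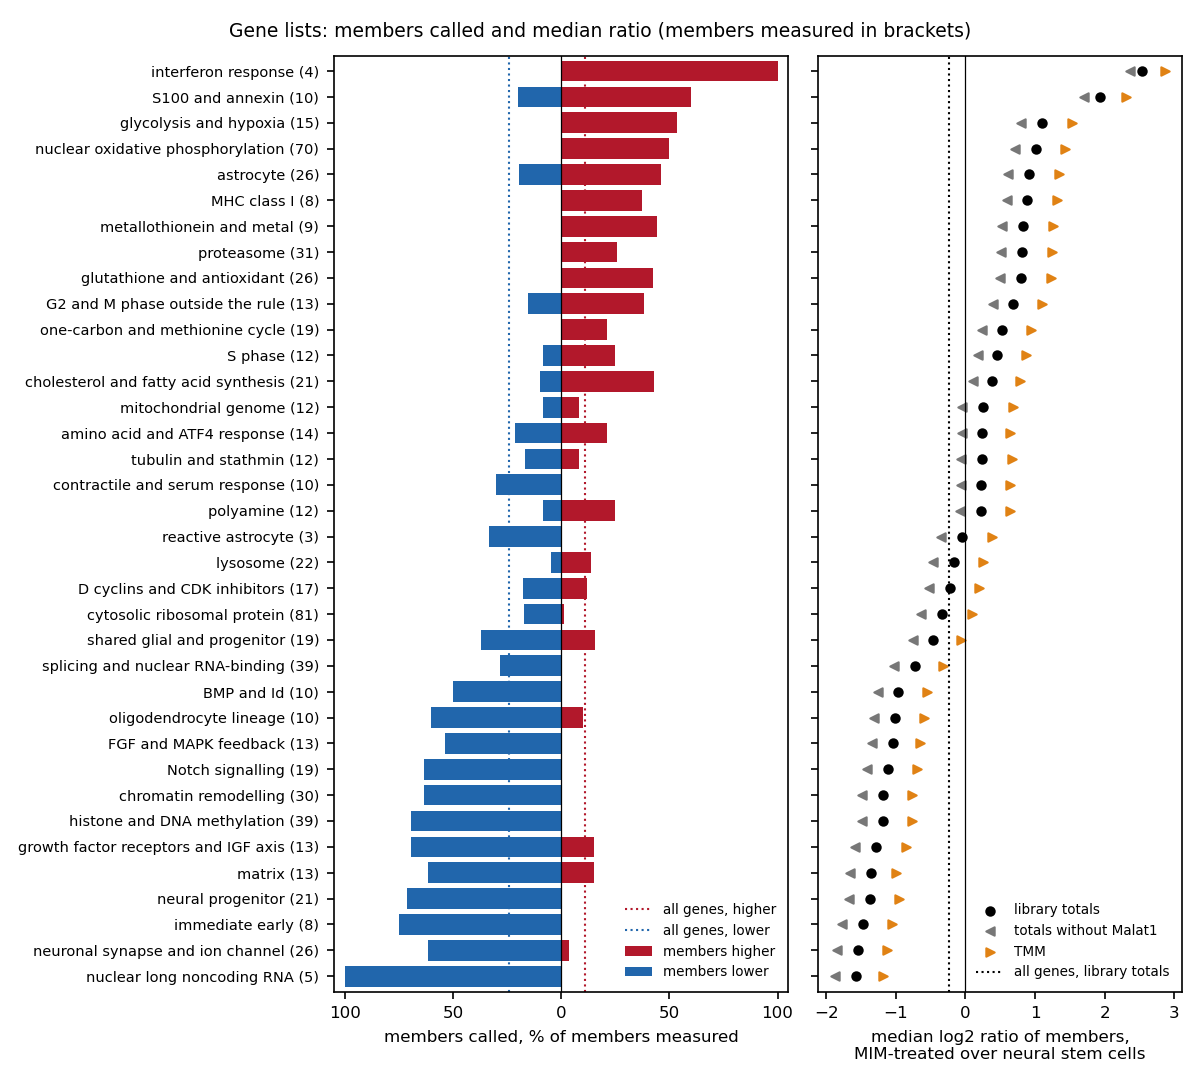
Left, share of each gene list's measured members (number in brackets) called higher (red) or lower (blue) in MIM-treated astrocytes, with dotted lines at the 11.1% and 24.2% of all genes. Right, median log2 ratio of each list under library totals, totals without Malat1 and TMM, with a dotted line at −0.24, the median of all genes; lists near 0 change side with the scaling, and those at either end keep it.

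The direction of a gene followed the length of its transcript, a pattern noticed after the values were seen. Of the 7180 genes 7175 had a length in GENCODE vM21. The longest annotated transcript had a median of 1.885 kb among genes called higher, 4.86 kb among genes called lower and 3.103 kb among the rest, and the median gene span was 11.6, 46.5 and 22.1 kb in that order. Genes were divided by length into 4 equal bins. In the shortest bin, with transcripts up to 2.06 kb, the genes were higher in 24.3% and lower in 6.08% of cases (median log2 ratio 0.52). In the longest bin, from 4.93 kb, the genes were higher in 2.73% and lower in 47.2% of cases (median −0.95).

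Bin medians were in the same order under the 3 scalings, in cells of like Malat1 share and in dividing cells. Medians ran from 0.23 in the shortest to −1.24 in the longest bin without Malat1, from 0.94 to −0.54 with TMM, from 0.20 to −1.04 in cells with 5% to 15% Malat1, and from 0.51 to −0.79 in dividing cells. The lists differ in length accordingly. Of 39 methylation genes 28 lay in the longest bin, as did 26 of 30 remodelling genes, 9 of 13 receptor and IGF genes, 9 of 13 matrix genes and 20 of 26 synapse and channel genes. In contrast 56 of 70 oxidative phosphorylation genes and 21 of 31 proteasome genes lay in the shortest bin. The lists' counts can be set beside those of their bins: 27 of 39 methylation genes were lower where 47.2% of the longest bin were, and 35 of 70 oxidative phosphorylation genes were higher where 24.3% of the shortest bin were. Whether transcript length accounts for any list's count was not tested.

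Several genes went against this order. Hes5 (1.27 kb) and Rnase1 (0.992 kb) lay in the shortest bin and were lower. Cbs and Ctsl, at 6.23 and 6.17 kb, lay in the longest bin and were higher. Lists could also lie across the bins. Immediate early genes had a median of 2.893 kb, beside 3.349 kb over all genes. Of these 8 genes 2 lay in the shortest bin and 0 in the longest, and Egr1 had 4.48 kb. Of 21 progenitor genes 8 lay in the longest bin and 3 in the shortest.

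**Figure D4:**
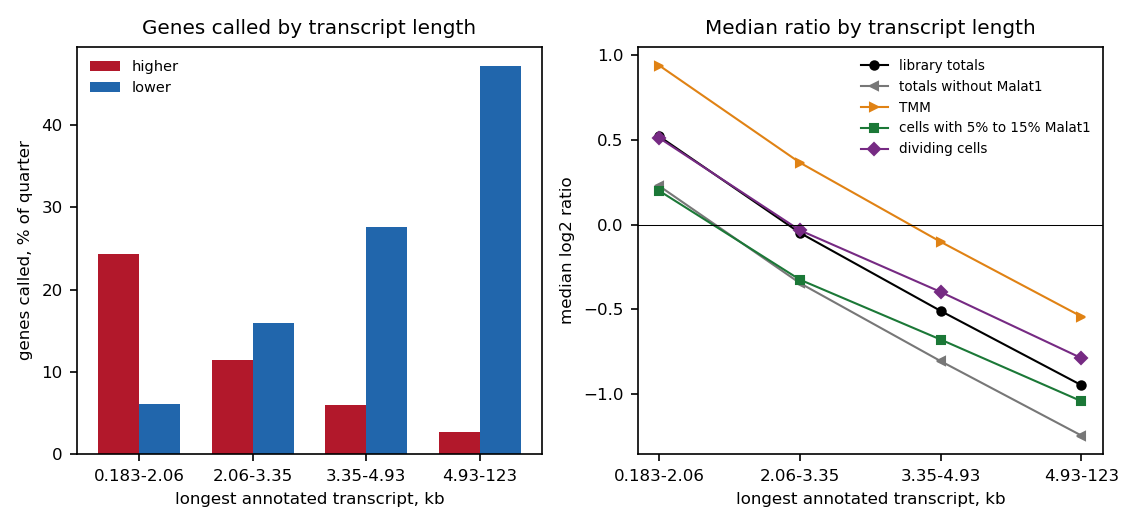
Genes by bin of the longest annotated transcript (4 bins of equal size) (kb). Left, percentage of each bin called higher or lower in MIM-treated astrocytes, from 24.3% higher and 6.08% lower in the shortest to 2.73% and 47.2% in the longest; right, median log2 ratio of each bin under 3 scalings, in cells of like Malat1 share and in dividing cells, falling from left to right in each.

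Genes that run the one-carbon cycle were called in few cases, with 4 of 19 measured higher, 0 lower and a median of 0.52. The 4 were Gcsh, the hydrogen carrier of glycine cleavage, at 301 CPM (295–307) against 78.3 CPM (73.55–83.3), Psph and Psat1, which make serine, at 245.7 and 67.6 CPM against 66.95 and 23.5 CPM, and Cbs, which draws homocysteine toward cysteine, at 13.8 against 6.02 CPM. Phgdh, the first enzyme of serine synthesis, stood at 198 against 212 CPM, and Gldc, which decarboxylates glycine, at 23.1 against 23.8 CPM. Mat2a, which makes S-adenosylmethionine, stood at 25.95 against 38.6 CPM. Without Malat1 in the totals 3 were higher and 1 lower, and the call for Cbs was lost. With TMM 8 were higher and 0 lower.

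Polyamine genes included a pair with opposite roles. Of 12 measured, 3 were higher, 1 lower, and their median was 0.22, or −0.08 without Malat1. Odc1, which makes putrescine, stood at 15.8 CPM (14.5–17.3) against 46.8 CPM (43.2–50.7), 2.96-fold lower (2.62–3.335). Sat1, which acetylates polyamines for export or breakdown, stood at 233 CPM (228–239) against 77.7 CPM (73.0–82.6), 3.00-fold higher (2.81–3.21). Srm and Sms, which make spermidine and spermine, had log2 ratios of 0.11 and −0.09.

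Amino acid and ATF4 response genes were mixed, with 3 higher and 3 lower of 14 measured, beside 11.1% and 24.2% of all genes. Their median of 0.24 became −0.04 without Malat1. Nupr1, a stress-induced chromatin protein, had 993 UMIs in MIM-treated cells and 7 in neural stem cells, 58.0-fold higher (28.0–145). Asns, asparagine synthetase, stood at 15.4 against 4.32 CPM. The amino acid transporters Slc7a5 and Slc38a2 were lower, at 7.22 and 14 CPM against 23.1 and 42.0 CPM. Atf4 itself stood at 30.5 against 20.4 CPM and was not called.

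Antioxidant genes were higher or not called with library totals. Of 26 measured, 11 were higher as against 0 lower (median 0.80). Cat, catalase, stood at 41.8 against 71.9 CPM, a log2 ratio of −0.77, and was called lower without Malat1, at −1.07. Prdx6, Prdx1 and Prdx5, which reduce peroxides, stood at 2323, 4830 and 628 CPM against 364, 1314 and 170 CPM. Gpx1 and Gpx4, glutathione peroxidases, stood at 1147 and 898 CPM against 226.5 and 288 CPM, and Hmox1, which breaks down heme, at 56.2 CPM (53.6–58.8) against 9.72 CPM (8.10–11.6). Prdx6 in untreated astrocytes was higher again, at 19210 CPM. Gclm, the regulatory subunit of glutathione synthesis, stood at 187 against 56.5 CPM, while its catalytic partner Gclc had a log2 ratio of 0.25. Nfe2l2, the factor that induces many of these genes, stood at 68.15 against 63.2 CPM.

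Metal, S100 and annexin genes held some of the largest ratios. Of 9 metal genes 4 were higher and 0 lower (median log2 ratio 0.83): besides Fth1 and Mt3 these were Tfrc, the transferrin receptor, and Slc39a12, a zinc importer. Mt1 and Mt2, the widely expressed metallothioneins, had log2 ratios of −0.25 and −0.10. Of 10 S100 and annexin genes 6 were higher, 2 lower, and their median was 1.94. S100a16 stood at 346 CPM (339.5–352.5) against 21.4 CPM (18.9–24.04), and Anxa5, which binds exposed phosphatidylserine, at 130 CPM (126–134) against 10.3 CPM (8.59–12.2). S100a1 and Anxa2 were 11.15-fold (8.25–15.4) and 12.55-fold (8.30–19.9) higher. S100a10, the partner of Anxa2, went the other way, at 10.3 against 44.4 CPM. Of 3 measured reactive astrocyte genes 1, S100a10, was called lower, and the median of −0.05 became 0.38 with TMM.

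Few interferon-induced genes were measured. Of 25 listed, 4 reached 10 CPM in either library, and 3 of these, Ifitm3, Ifi27 and Psmb9, did so through MIM-treated cells alone, so that their being higher was fixed by the floor and the 4 do not stand for the list. All 4 were higher, with a median of 2.53. Ifitm3, a membrane protein that blocks virus entry, stood at 63.7 CPM (60.9–66.5) against 2.08 CPM (1.37–3.03), and Ifi27 at 25.3 against 3.085 CPM. Reads of Ifitm3 and Ifitm2 could be shared with close copies. Of 8 MHC class I genes 3 were higher as against 0 lower (median 0.89), or 6 higher with TMM. H2-K1, a heavy chain with close relatives, stood at 31.4 against 4.705 CPM, and the immunoproteasome subunits Psmb9 and Psmb10 at 10.6 and 40.5 CPM against 1.23 and 16.2 CPM. B2m, the shared light chain, had a log2 ratio of 0.86.

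Of the energy metabolism genes of the nucleus, those called were higher. Of 15 glycolysis and hypoxia genes 8 were higher and 0 lower (median log2 ratio 1.10), among them Tpi1, Gpi1, Gapdh, Pgam1, Pkm and Pgk1, which catalyse steps of glycolysis. Tpi1 stood at 188 CPM (183–193) against 31.6 CPM (28.6–34.8), and Ldhb, the lactate dehydrogenase subunit that favours pyruvate, at 2679 against 737 CPM. Of 70 nuclear oxidative phosphorylation genes 35 were higher, 0 lower, and their median was 1.01, close to the size limit itself. Their count was 14 without Malat1 and 60 with TMM. Uqcrc2 and Uqcrfs1 of complex III, which passes electrons to cytochrome c, were 4.43-fold (4.14–4.74) and 4.16-fold (4.00–4.335) higher. Genes of the mitochondrial genome itself were nearer to equal: of 12 measured, 1 was higher as against 1 lower (median 0.26, but −0.05 without Malat1).

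Proteasome and lipid synthesis genes leaned higher with library totals, and the proteasome count moved with the scaling. Of 31 proteasome genes 8 were higher and 0 lower (median log2 ratio 0.81), with 2 higher without Malat1 and 21 with TMM. Among 21 cholesterol and fatty acid genes 9 were higher, 2 lower, and their median was 0.38. Without Malat1 8 were higher and 4 lower, and with TMM 10 and 0. In dividing cells the median of this list was −0.15. With library totals, the 9 higher genes were enzymes of lipid synthesis such as Msmo1 (51.3 against 12.7 CPM), Idi1 (63.5 against 16.9 CPM) and Sqle. The 2 lower genes were Fasn, fatty acid synthase, and Srebf2, the factor that induces the pathway, at 13.75 against 29.0 CPM. Lysosome genes numbered 3 higher and 1 lower of 22, beside 11.1% and 24.2% of all genes. Their median of −0.17 became 0.25 with TMM.

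Of 81 ribosomal protein genes 14 were lower and 1 higher, beside 24.2% of all genes lower, and the median of −0.34 became 0.09 with TMM. Without Malat1 26 were lower, and with TMM 7. Rpl37 stood at 1631 against 6369 CPM and Rps28 at 280 against 1199 CPM, and processed copies of these genes make single values uncertain. Tubulin and stathmin genes had a median of 0.24, or −0.06 without Malat1, with Tubb2a higher and the neuronal genes Map2 and Tubb3 lower of 12. Of 10 contractile genes 3 were lower and 0 higher, beside 24.2% and 11.1% of all genes. Actb, cytoplasmic actin, stood at 4170 against 13800 CPM, while Actg1 had a log2 ratio of −0.08. The median of the contractile genes, 0.23, became −0.06 without Malat1. In cells with 5% to 15% Malat1 the medians of the ATF4, cholesterol, tubulin and contractile lists were also negative, at −0.04, −0.10, −0.23 and −0.45.

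Matrix and synaptic genes were mostly lower with library totals, beside 24.2% of all genes. Of 13 matrix genes 8 were lower as against 2 higher (median −1.36), or 6 lower and 3 higher with TMM. Fbln2, which links elastic fibres to basement membranes, stood at 6.18 CPM (5.35–7.11) against 66.5 CPM (62.1–71.1), and the brain proteoglycans Ncan and Bcan at 87.6 and 125 CPM against 464 and 387 CPM. Sparc and Cspg5 were higher, at 329 and 265 CPM against 131 and 114.5 CPM. Of 26 synapse and ion channel genes 16 were lower and 1 higher (median log2 ratio −1.54). They included Nrgn, a calmodulin-binding protein, Kcnd2 and its partner Dpp6, and Grm5, a glutamate receptor, at 27.4 against 122 CPM. The single higher gene was Kcnj10, a channel of glia.

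Cell cycle genes outside the rule were reduced by it as well and are given without weight. Of 12 S phase genes 3 were higher, 1 lower, and their median was 0.46, and of 13 further G2 and M phase genes 5 were higher as against 2 lower (median 0.69). In cells matched for Malat1 share these medians were −0.02 and −0.07. Cell cycle inhibitors differed by gene: Cdkn1b (p27) stood at 42.9 against 129 CPM and Cdkn1c (p57) at 3.5 against 22.5 CPM, whereas Cdkn1a (p21) stood at 45.35 against 19.6 CPM and Cdkn2d (p19) at 34.8 against 10.6 CPM. Of 17 D cyclin and inhibitor genes 3 were lower and 2 higher, beside 24.2% and 11.1% of all genes (median log2 ratio −0.23, but 0.20 with TMM). The third lower gene was Cdk6, the kinase partner of D cyclins, at 1.58 against 12.8 CPM.

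Differences in level were also seen as shares of cells. Cells were thinned to 1000 UMIs, which left out 848 MIM-treated and 1416 neural stem cells as too shallow. Clu had a UMI in 29.25% of MIM-treated astrocytes (28.3% to 30.2%), 1.62% of neural stem cells (1.34% to 1.94%) and 94.1% of untreated astrocytes; without thinning the shares were 50.4%, 2.23% and 98.5%. Fabp7 had a UMI in 98.1% of MIM-treated and 82.7% of neural stem cells, and in 99.65% and 86.4% without thinning. Hes5 was seen in 6.06% against 13.7% (13.9% against 19.0% without thinning), Egfr in 5.396% against 11.9% (14.2% against 16.8%) and Sox2 in 14.6% against 22.9%. For Sox2 the order without thinning was the reverse, at 35.2% against 31.0%, as the MIM-treated cells were deeper.

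Kdm6b had a UMI in 4.515% of thinned MIM-treated cells and 27.9% of neural stem cells, Mfge8 in 2.91% and 26.1%, and Egr1 in 0.114% and 6.41%. Their shares were 10.6%, 7.78% and 0.286% in MIM-treated and 36.7%, 34.8% and 9.15% in neural stem cells without thinning. Neither library holds a cell type known to lack these genes, so the share that free RNA gives is not measured within it. In untreated astrocytes, with a median of 5089 UMIs per cell, the thinned shares were 2.17% for Kdm6b, 0.825% for Mfge8, 0.116% for Egr1 and 0.0952% for Hes5. The Egr1 share in MIM-treated cells was thus at the level of that library.

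**Figure D5:**
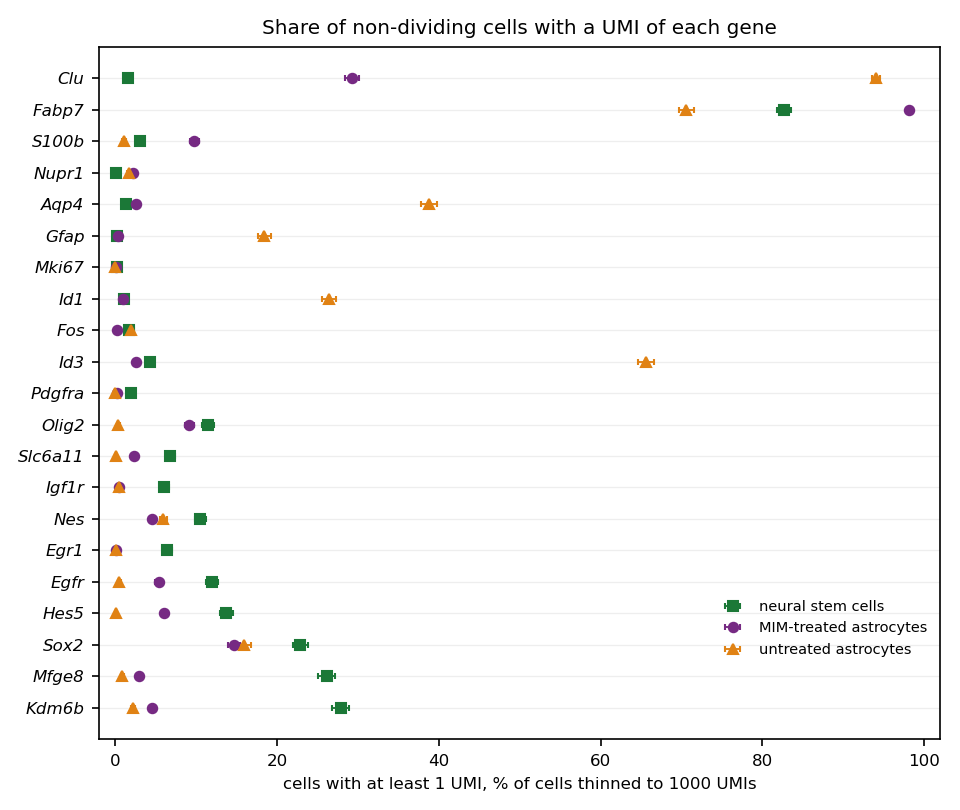
Percentage of non-dividing cells, each thinned to 1000 UMIs, with at least 1 UMI of each of 21 genes in neural stem cells (squares), MIM-treated astrocytes (circles) and untreated astrocytes (triangles), with exact 95% binomial intervals. Clu, Fabp7 and S100b lie higher in MIM-treated than in neural stem cells, and Kdm6b, Mfge8, Sox2, Hes5, Egfr and Egr1 lie lower.

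MIM-treated cells varied among themselves, described here by a split on Clu chosen after the values were seen. Thinned cells with a Clu UMI numbered 2824, and 6832 had none. Aqp4 stood at 44.3 CPM in cells with Clu and 19.3 CPM in those without, Slc4a4 at 255 and 150 CPM, Apoe at 26180 and 15400 CPM, and Igfbp2 at 963 and 586 CPM. The lineage factors Olig2 and Olig1 stood at 57.7 and 511 CPM in cells with Clu and at 120 and 909 CPM in those without. S100b did not follow the astrocyte genes, at 104 and 110 CPM. In neural stem cells 115 thinned cells had a Clu UMI, and Slc4a4, Apoe and Olig1 stood at 278, 9748 and 243.5 CPM in them against 78.4, 4698 and 554 CPM in the 7001 without. Hes5 and Sox2 differed less in MIM-treated cells, at 82.9 and 160 CPM in cells with Clu and 65.4 and 160 CPM in those without. Cells with Clu had a median of 3734.5 UMIs before thinning against 2729 in the others, and the part of depth or of doublets in these differences was not tested. Both fractions stood below neural stem cells without a Clu UMI in Hes5, at 182 CPM, and in Nes, at 39.3 and 49.6 CPM against 116 CPM.

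Dividing cells, with 2 or more UMIs over the rule's genes, gave the comparison in cells not used above: 4460 MIM-treated astrocytes and 613 neural stem cells. Of the 796 genes higher in non-dividing cells 545 were also higher there (68.5%) and 1 was lower, and of the 1739 lower genes 1196 were also lower (68.8%) and 0 higher. Clu stood at 347 CPM in dividing MIM-treated cells against 8.70 CPM in dividing neural stem cells, Egr1 at 0.781 against 54.5 CPM, Hes5 at 46.8 against 232 CPM and Mfge8 at 20.9 against 341.5 CPM. Both sets of cells come from the same cultures and droplet runs, so this is no replicate. Malat1 took 6.63% and 19.5% of UMIs in dividing cells, also lower in the MIM-treated library. Genes that differed in size between the sets included Hist1h4i, with a log2 ratio of 3.87 in non-dividing and 1.14 in dividing cells, and Ezh2, with −1.33 and −0.28.

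Cells with 5% to 15% Malat1 gave a comparison at a like Malat1 share, between 6133 MIM-treated astrocytes and 930 neural stem cells. Of the 796 higher genes 429 were higher there as well (53.9%), and of the 1739 lower genes 1544 were lower (88.8%). Over all genes in these cells 472 were called higher and 2422 lower. The balance thus leaned further toward lower than in the main comparison, and the overlaps cannot be read apart from it. In these cells the log2 ratio was 6.06 for Clu, 2.85 for Fth1 and 2.81 for Aldoc, and −5.64 for Egr1, −3.37 for Kdm6b, −2.27 for Hes5 and −2.25 for Nes. The value for Clu rested on 9 UMIs in the neural stem cells, so its size is uncertain. Of 39 methylation genes 29 were lower, and of 21 progenitor genes 16. Other ratios were smaller there, such as Chd3 at −2.61 from −3.69, Rnase1 at −3.94 from −5.06 and Pdgfra at −2.02 from −3.39. Pdgfra had 14 UMIs in the matched MIM-treated cells and 7 in the neural stem cells, so its shift is uncertain. These neural stem cells were a small, shallow part of their library, with a median of 1179 UMIs against 3622 in the matched MIM-treated cells, and that difference was not removed.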

How the data were processed

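Single-cell expression was measured with 10x Genomics libraries of methanol-fixed cells. The deposited matrices hold UMI counts for 31053 genes. They were made by the authors in Cell Ranger 3.0.2 against its mm10 reference, per the labels' protocols; the submitters' processing notes also name Seurat 3.1.1 with no role. No filter of theirs is stated, and no doublet caller was run here.

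UMIs were summed over the non-dividing cells of each library and scaled to CPM by the library total, the total without Malat1, or TMM factors (0.862 and 1.16 for MIM-treated and neural stem cells). The size limit was applied to log2 ratios with a pseudocount of 1 CPM, and folds are ratios of CPM without it. Levels carry exact Poisson, folds exact conditional binomial and shares exact Clopper-Pearson 95% intervals. A floor of 10 CPM in either library decided which genes were tested.

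Named were the 15 genes with the largest ratio in each direction at 50 CPM or more and called under all 3 scalings, up to 4 members of each list by ratio, and a set of markers whatever their values; other members are examples from the lists. The first part of this rule leaves out sex-linked, haemoglobin, ribosomal protein and mitochondrial genes and models with clone names, of which 1500015O10Rik (log2 ratio 4.67), 1110008P14Rik (3.03), CT025619.1 (−3.47) and C530008M17Rik (−3.18) would have ranked. The cells, the 36 gene lists and the rule were chosen with earlier results of these data known. Gene positions are those of GENCODE vM21, found through the gene ID for 176 of 176 named genes, and promoters from RefSeq. The scripts were tested on simulated data. Thinning used a random seed of 1. The work ran in Python 3.11.15 with scipy 1.17.1, numpy 2.4.6, matplotlib 3.10.9 and pandas 2.3.3, and in R 4.3.3 with edgeR 4.0.16, the latter for TMM factors only.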

Additional observations from a re-analysis of the deposited data

How the results depend on the processing

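Of 15 alternatives, none turned a call of any gene to the other direction. The counts of 796 higher and 1739 lower genes moved by more than 1.5 times in 7 of them. They were 462 and 2870 with totals without Malat1, and 1635 and 890 with TMM. With a pseudocount of 10 CPM they were 498 and 726, and with a floor of 50 CPM 487 and 476. Without a floor 2832 genes were lower, among cells with 1000 to 3000 UMIs 1123 were lower, and among cells with 5% to 15% Malat1 472 were higher. A higher pseudocount shrinks ratios of low genes and a higher floor tests fewer genes; the cause of the other shifts was not tested. In cells with 5% to 15% Malat1 the log2 ratios of Ube2c, Pclaf and Cdca3 turned to −0.55, −0.86 and −0.21. The median of the oligodendrocyte lineage list turned to 0.0577 in cells with 1000 to 3000 UMIs. No replicate could be left out, since each group is 1 library. No paired analysis was possible because the result comes from no test and each group holds a single library. Depth limits what can be said of genes under 10 CPM, Gfap and Mki67 among them.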
